A study of Mus musculus with 8 samples.

Results

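The Ikaros family was described here in 4 lymphoid progenitor populations of mouse marrow. It comprises 5 zinc finger transcription factors, Ikzf1 (Ikaros), Ikzf2 (Helios), Ikzf3 (Aiolos), Ikzf4 (Eos) and Ikzf5 (Pegasus), which were taken by symbol from the 22878 gene symbols of the deposited tables. All 5 were found and all 5 were among the 13619 genes tested. The libraries came from sorted marrow cells of C57BL/6 mice, an inbred strain, with 2 libraries for each population. ChILP, the common helper-like innate lymphoid progenitor, was sorted without lineage markers, Flt3 or ST2 and with CD127, Kit and integrin α4β7. PD-1+ cells (in the labels, non-LTi ILC progenitors) and CCR6+ cells (LTi progenitors) were sorted from within the same gate by PD-1 without CCR6 and by CCR6 without PD-1. ILCs are innate lymphoid cells, and LTi cells are the lymphoid tissue inducers among them. CLP, the common lymphoid progenitor from which these cells descend, was sorted with CD127, Flt3, Sca-1 and Kit and without lineage markers or integrin α4β7. Before the sort, marrow for PD-1+ and CCR6+ cells went through a magnetic column that held back cells bearing integrin α4β7, whereas marrow for ChILP and CLP was depleted of lineage cells. Comparisons of PD-1+ or CCR6+ cells with CLP therefore differ in the route of enrichment as well as in cell type, and these cannot be told apart. No genetic change, treatment, age or sex is given in the labels used here, and the gates are the only definition of each group.

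Ikaros family proteins carry a group of N-terminal zinc fingers that bind DNA at sites with a GGGAA core and a C-terminal pair of zinc fingers through which members pair with one another. They recruit chromatin remodelling and corepressor complexes, above all NuRD, and both silence and activate lymphoid genes. Ikaros is required for the formation of lymphocytes from multipotent progenitors, Aiolos is known from later B cell stages and from mature T, NK and innate lymphoid cells, and Helios is known from early progenitors, regulatory T cells and innate-like lymphocytes. Eos is known as a partner of Foxp3 in regulatory T cells, and Pegasus is the most divergent member in sequence and in the sites it binds.

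Each library held between 7685188 and 13997897 reads in genes. Levels below are the RPKM values made by the authors (reads per kilobase of transcript scaled to library size), which can be compared between genes because they are per length. Fold changes are log2 values from edgeR's quasi-likelihood test on read counts with TMM scaling, with all 4 groups in 1 fit. Called genes are those with a p under 0.05 after Benjamini-Hochberg adjustment over the whole set tested. Whether paired libraries of 1 group derive from different mice is not in the labels, and the p-values therefore reflect only the spread between samples, part of which may be technical. Against CLP, library totals without TMM moved the median fold change of all genes by -0.25 in PD-1+ and by -0.36 in CCR6+ cells on the log2 scale, so the RPKM of these groups stand lower beside CLP than the scaled fold changes do. The sort gates were checked on their own genes. Pdcd1, which encodes PD-1, stood at 181 and 36.3 RPKM in the PD-1+ libraries, against 0 and 1.10 RPKM in the CCR6+ libraries. Ccr6 stood at 0 and 8.11 RPKM in the PD-1+ libraries, against 84.2 and 23.6 RPKM in the CCR6+ libraries. PD-1+ replicate 2 thus carried Ccr6 reads although its gate lacked CCR6, and it had less Pdcd1 than PD-1+ replicate 1. Fold changes of the members in PD-1+ cells, or for Ikzf4 its ratio to a floor of CLP reads, are also given without it.

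Ikzf1 is the most abundant member, and RefSeq (GRCm38.p6) lists a pair of transcription starts for it, whose upstream windows are shown because they differ in base composition. Each window holds the 250 bases before a start, on the plus strand, and overlaps no exon annotated in GENCODE M21. Capitals mark matches to GGGAA or its reverse complement TTCCC, searched on both strands.
Ikzf1 upstream start, chr11:11685675-11685924: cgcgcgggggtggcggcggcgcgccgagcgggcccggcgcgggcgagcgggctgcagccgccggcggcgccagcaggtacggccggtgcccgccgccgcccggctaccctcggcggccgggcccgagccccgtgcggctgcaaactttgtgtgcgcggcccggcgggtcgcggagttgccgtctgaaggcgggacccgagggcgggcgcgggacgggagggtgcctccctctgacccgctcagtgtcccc
Ikzf1 downstream start, chr11:11689927-11690176: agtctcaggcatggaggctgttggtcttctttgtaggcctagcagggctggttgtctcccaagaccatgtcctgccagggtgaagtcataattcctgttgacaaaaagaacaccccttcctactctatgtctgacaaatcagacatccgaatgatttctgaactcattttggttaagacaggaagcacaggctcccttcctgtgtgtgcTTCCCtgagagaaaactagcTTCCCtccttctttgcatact
The window of the upstream start was 82.0% G or C, above 99.3% of all 32851 windows of that length in the table, and held no match. The window of the downstream start was 47.6% G or C and held 2 matches. At least 1 match stood in 56.2% of all windows, so a match is common at this length. Reads in the deposited tables are summed per transcript and do not separate these starts. Ikzf5 also had an entry in the promoter table, and Ikzf2, Ikzf3 and Ikzf4 had none.

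Ikaros itself was the leading member in every library and was lower in all 3 innate lymphoid populations than in CLP by a modest amount. Ikzf1 (NM_001025597) stood at 60.2 and 64.9 RPKM in ChILP, 58.1 and 46.6 RPKM in PD-1+ cells and 41.3 and 43.0 RPKM in CCR6+ cells, against 71.99 and 89.2 RPKM in CLP. No library of the innate lymphoid groups reached the lower CLP library. Such a gap below CLP without overlap was seen for 18.6% of all genes tested in ChILP, 38.7% in PD-1+ cells and 45.7% in CCR6+ cells, so this order of libraries is common. Its mean level lay above that of 90.1% of the genes tested in ChILP, 90.0% in PD-1+, 87.5% in CCR6+ and 92.6% in CLP. In bulk samples such as these, fewer cells of a type and less RNA per cell cannot be told apart. The fold change against CLP was -0.30 (SE 0.17, edgeR adjusted p = 0.965) in ChILP, -0.35 (SE 0.17, adjusted p = 0.250) in PD-1+ and -0.60 (SE 0.17, adjusted p = 0.0598) in CCR6+ cells. None of these passed as fitted. The change in CCR6+ cells passed in 5 of 18 alternatives, namely DESeq2 (adjusted p = 0.0141), limma with either pseudocount (adjusted p = 0.0151 and 0.0174), the filter of 5 RPKM (adjusted p = 0.0473) and library totals in place of TMM (-0.95, adjusted p = 0.0170), and it did not pass in the other 13. Its sign against CLP was the same in every alternative run. By RPKM, PD-1+ and CCR6+ libraries also lay below both ChILP libraries, as did 35.6% and 43.7% of all genes. Between the ILC progenitors, PD-1+ cells were at 52.3 ± 8.11 RPKM and CCR6+ cells at 42.2 ± 1.18 RPKM (mean ± SD, n = 2 each, as below), a fold change of 0.24 (SE 0.17, adjusted p = 0.851) that did not pass. Without PD-1+ replicate 2 it was 0.33 (adjusted p = 0.493) there and -0.27 (adjusted p = 0.500) against CLP. The order of mean RPKM was CLP, ChILP, PD-1+ and CCR6+, and no neighbours in it had overlapping libraries. RPKM are not TMM-scaled, and the TMM factors were 1.05 and 1.12 in ChILP and 0.992 and 0.884 in PD-1+ libraries. The gap between ChILP and PD-1+ libraries thus need not hold after TMM scaling. Both PD-1+ libraries lay above both CCR6+ libraries, as for 19.0% of all genes. The means of PD-1+ and of CLP had a spread of 8.11 and 12.2 RPKM (SD).

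The tables list Ikzf1 as a pair of transcripts whose lengths, 5163 and 4902 bases, differ by 261 bases. In GENCODE M21 the transcript matched to the longer one holds an exon of exactly 261 bases that the match of the shorter one (NM_009578) lacks. The match of the shorter one is only 1542 bases long in 7 exons, so it is not the full deposited transcript. The exon of 261 bases encodes the most N-terminal DNA-binding zinc finger, and its use separates the long Ikaros isoforms. Reads counted on the longer but not on the shorter transcript numbered 240 and 297 in ChILP, 220 and 196 in PD-1+ cells, 91 and 120 in CCR6+ cells, and 232 and 228 in CLP. Per base, these reads were 0.829 and 1.14 times as dense as the reads on the rest of the gene in ChILP, 0.999 and 0.991 times in PD-1+ cells, 0.780 and 0.724 times in CCR6+ cells, and 1.16 and 0.657 times in CLP. Reads that fit the added exon were thus present in all 8 libraries. The CCR6+ libraries were below both PD-1+ libraries and lay between the CLP libraries. How reads across exon junctions were counted is not given in the sources used here, so these ratios are not a measure of exon inclusion, and no test was made on them.

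**Figure D1:**
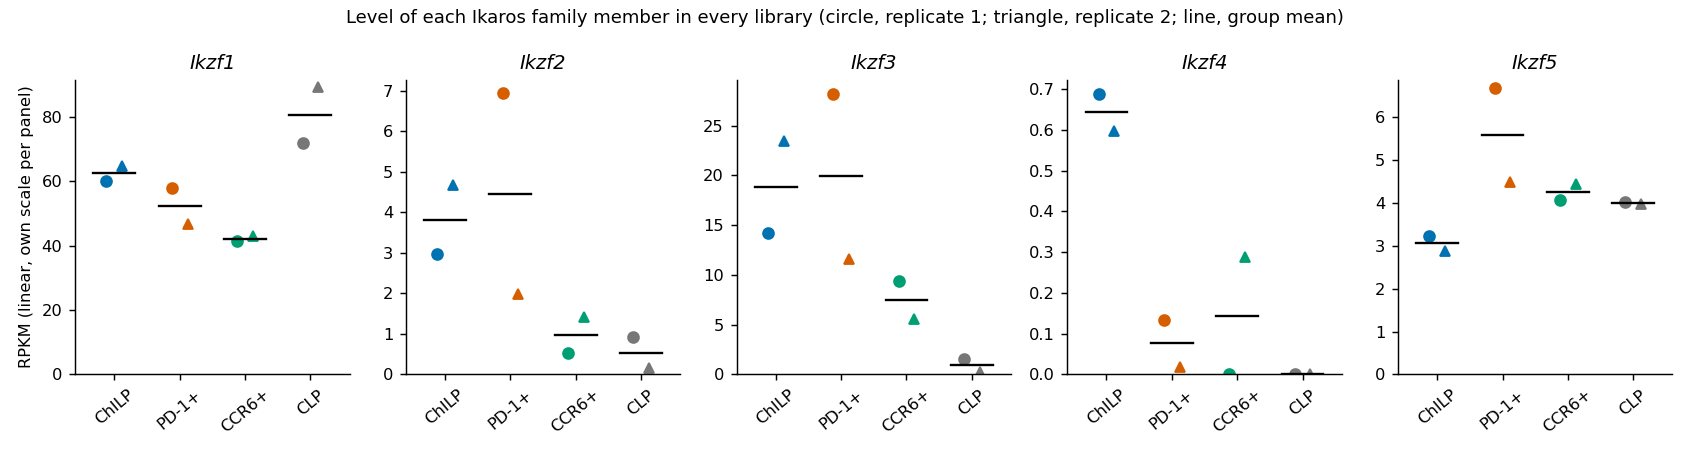
RPKM (y axis, linear, own scale in each panel) of the 5 members in ChILP, PD-1+, CCR6+ and CLP libraries (x axis); circles are replicate 1, triangles replicate 2 and lines group means. Ikzf1 is highest in CLP (71.99 and 89.2 RPKM), Ikzf2 and Ikzf3 are highest in PD-1+ replicate 1 (6.93 and 28.2 RPKM), and Ikzf4 has no read in CLP.

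Against CLP, Aiolos had the widest fold changes of the members with reads in every library. It was the member next in level to Ikaros in all 3 innate lymphoid populations and was barely detected in CLP. Ikzf3 (NM_011771) stood at 14.2 and 23.5 RPKM in ChILP, 28.2 and 11.6 RPKM in PD-1+ cells and 9.43 and 5.58 RPKM in CCR6+ cells, against 1.51 and 0.283 RPKM in CLP. Its counts were 1062 and 1486 reads in ChILP, 1680 and 771 in PD-1+, 413 and 333 in CCR6+, and 66 and 17 in CLP. Every library of the 3 groups was above both CLP libraries, an order seen for 17.0% of all genes in ChILP, 18.6% in PD-1+ and 19.8% in CCR6+ cells.

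Ikzf3 rose in PD-1+ cells against CLP with a fold change of 4.72 (SE 0.82, edgeR adjusted p = 0.0197) and in CCR6+ cells against CLP with 3.40 (SE 0.78, adjusted p = 0.0321). It was the 1 member called among 5 in each of these comparisons, in which 7.31% and 11.4% of all genes were called. In ChILP against CLP its fold change was 4.45 (SE 0.81) with an unadjusted p of 0.000600 and an adjusted p = 0.115, so edgeR did not call it. In that comparison edgeR called 3 genes, 0.022% of those tested, and 0 members; 0.514% of all genes had a lower p than Ikzf3. DESeq2 called it there (adjusted p = 1.78e-07), as did limma on log2(RPKM + 1) (adjusted p = 0.0217) and on log2(RPKM + 0.1) (adjusted p = 0.0408). The F test over all 4 groups called Ikzf3 (adjusted p = 0.0355) and no other member, where 9.71% of all genes were called. The size of these fold changes turned on the CLP libraries, which differed from each other by several-fold. Without CLP replicate 2 the fold change was 3.89 in PD-1+ (adjusted p = 0.0817), 2.58 in CCR6+ (adjusted p = 0.114) and 3.63 in ChILP (adjusted p = 0.563). Without CLP replicate 1 it was 6.43 in PD-1+ (adjusted p = 0.0188), 5.12 in CCR6+ (adjusted p = 0.0184) and 6.17 in ChILP (adjusted p = 0.101). Within the PD-1+ group it was 4.04 without replicate 1 (adjusted p = 0.0368) and 5.18 without replicate 2 (adjusted p = 0.0261), while the CCR6+ call was lost without CCR6+ replicate 1 (2.96, adjusted p = 0.106) or replicate 2 (3.74, adjusted p = 0.0575).

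Between PD-1+ and CCR6+ cells Ikzf3 stood at 19.9 ± 11.8 and 7.50 ± 2.72 RPKM. Both PD-1+ libraries were above both CCR6+ libraries, as for 19.0% of all genes. The fold change was 1.32 (SE 0.70, adjusted p = 0.850) and did not pass, and it was 1.78 (adjusted p = 0.334) without PD-1+ replicate 2 and 0.61 (adjusted p = 1) without PD-1+ replicate 1. In this comparison edgeR called 0 genes and so 0.0% of those tested, while 801 genes, 5.88%, had an unadjusted p under 0.05 and DESeq2 called 128. The order of mean levels was PD-1+, ChILP, CCR6+ and CLP. PD-1+ and ChILP overlapped, and the others did not. Both CCR6+ libraries lay below both ChILP libraries, as did 43.7% of all genes.

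**Figure D2:**
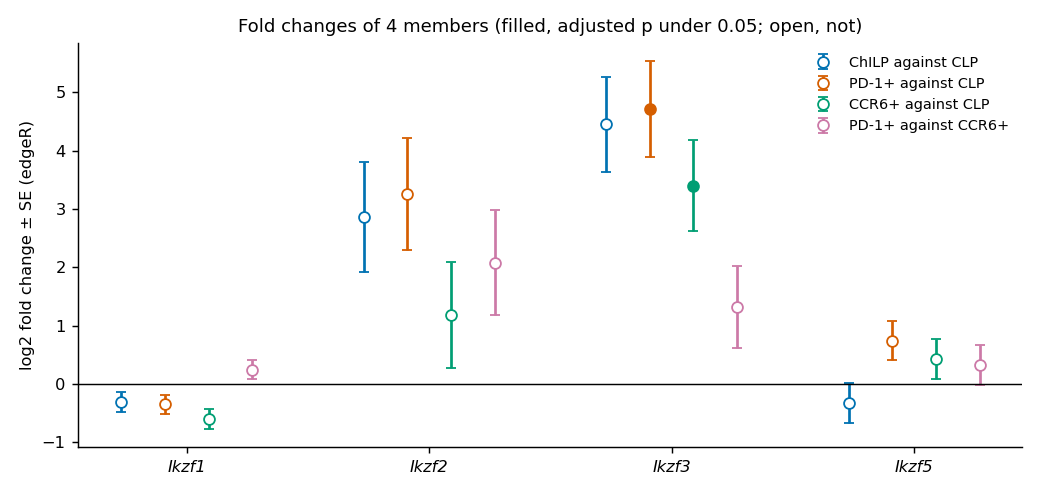
Log2 fold change with its SE (y axis, edgeR) of 4 members (x axis) in ChILP, PD-1+ and CCR6+ cells against CLP and in PD-1+ against CCR6+ cells; filled points had an adjusted p under 0.05. Filled points are Ikzf3 in PD-1+ (4.72) and CCR6+ cells (3.40) against CLP, and Ikzf4 is left out because CLP had no read of it.

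Helios followed ChILP and PD-1+ cells and was low in CCR6+ cells and CLP. Ikzf2 (NM_011770) stood at 2.97 and 4.66 RPKM in ChILP, 6.93 and 1.97 RPKM in PD-1+ cells and 0.536 and 1.43 RPKM in CCR6+ cells, against 0.923 and 0.152 RPKM in CLP. All ChILP and PD-1+ libraries were above all CCR6+ and CLP libraries, and the CCR6+ and CLP libraries overlapped. Of all genes tested, 17.0% lay above CLP without overlap in ChILP, and 18.6% in PD-1+ cells. PD-1+ libraries lay above CCR6+ libraries for 19.0%, and CCR6+ below ChILP libraries for 43.7%, so such gaps are common. The lowest library above the gap of Ikzf2, PD-1+ replicate 2, is the one with Ccr6 reads.

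The fold change of Ikzf2 was 2.85 in ChILP against CLP (SE 0.94, edgeR adjusted p = 0.627), 3.25 in PD-1+ against CLP (SE 0.96, adjusted p = 0.0798) and 1.18 in CCR6+ against CLP (SE 0.91, adjusted p = 0.446). None passed. Leaving out 1 library gave 2.03 (without CLP replicate 2) to 4.76 (without CLP replicate 1) in ChILP, and 0.31 (without CCR6+ replicate 2) to 3.09 (without CLP replicate 1) in CCR6+ cells, where it was 0.35 without CLP replicate 2 and none passed. In PD-1+ cells it was 3.86 without PD-1+ replicate 2 (adjusted p = 0.0689) and passed with DESeq2 (adjusted p = 0.00230) and without CLP replicate 1 (5.16, adjusted p = 0.0484), and without CLP replicate 2 it was 2.43 (adjusted p = 0.275). Between PD-1+ and CCR6+ cells, at 4.45 ± 3.51 and 0.982 ± 0.630 RPKM, the fold change was 2.08 (SE 0.91, adjusted p = 0.840), with 6.07% of all genes at a lower p. It was 2.68 without PD-1+ replicate 2 (adjusted p = 0.241), 0.98 without PD-1+ replicate 1 and 2.94 without CCR6+ replicate 2. Its sign was positive in every alternative run of these 4 comparisons.

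The members were also counted at an unadjusted p under 0.05, as a description. At an unadjusted p under 0.05, Ikzf2 and Ikzf3 were higher in ChILP than in CLP and no member was lower, where 2.79% of all genes were higher, 3.03% lower and 5.82% either at that level. Ikzf4 was past that level too and is not counted there because it passed the filter on low counts through ChILP. Ikzf2 was already known to be higher there from earlier results of these data. In PD-1+ cells against CLP, Ikzf2 and Ikzf3 were the 2 of 5 members higher (12.8% of all genes) and 0 were lower (11.4%), with 24.2% of genes in either direction. In CCR6+ cells against CLP, Ikzf3 was the 1 member higher (13.8% of all genes) and Ikzf1 the 1 lower (13.7%), with 27.5% in either direction. In PD-1+ against CCR6+ cells 0 members were higher (4.08% of all genes) and 0 lower (1.81%). At that level 26.2% of all genes differed among the 4 groups. The shares against CLP are high enough in PD-1+ and CCR6+ cells that 1 or 2 members of 5 is near the background.

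Eos was measured at a trace level, and most of its reads were in ChILP. Ikzf4 (NM_011772) had 45 and 33 reads in ChILP, 7 and 1 in PD-1+ cells, 0 and 15 in CCR6+ cells, and 0 and 0 in CLP. These counts correspond to 0.688 and 0.597 RPKM in ChILP, 0.135 and 0.0172 RPKM in PD-1+ cells, 0 and 0.287 RPKM in CCR6+ cells, and 0 and 0 RPKM in CLP. ChILP stood above every other library, and the PD-1+ and CCR6+ libraries overlapped. Of all genes, 17.0% lay above CLP without overlap in ChILP. Below ChILP without overlap lay 35.6% in PD-1+ and 43.7% in CCR6+ cells. Ikzf4 passed the filter on low counts largely through its ChILP libraries, so its test is not independent of that difference. With 3 reads over the CLP group as the floor, its pooled rate in ChILP was 19.5-fold that floor, and 18.1-fold without ChILP replicate 1. This ratio holds no error of the ChILP reads and no spread between libraries, so it is not a confidence bound. The same ratio, with the same limits, was 2.19-fold in PD-1+ cells, or 4.07-fold without PD-1+ replicate 2. It was 5.01-fold in CCR6+ cells, where 1 library had no read. The edgeR test did not call it in any comparison (adjusted p = 0.848 in ChILP, 0.349 in PD-1+ and 0.248 in CCR6+ against CLP, and 0.977 in PD-1+ against CCR6+). Pooled over libraries, PD-1+ cells had 0.112 times the ChILP rate (95% exact counting interval 0.0468 to 0.232) and CCR6+ cells 0.257 times (0.137 to 0.449). PD-1+ cells had 0.438 times the CCR6+ rate (0.161 to 1.10), an interval that includes no difference. These intervals cover counting error only, since amplified reads without molecular identifiers are not independent molecules. PD-1+ and CCR6+ cells are subdivisions of the ChILP gate, yet both had less Ikzf4 than whole ChILP, and they also differ from it in the route of enrichment.

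Pegasus was present at a low level in all 4 populations. Ikzf5 (NM_175115) stood at 3.24 and 2.89 RPKM in ChILP, 6.69 and 4.49 RPKM in PD-1+ cells and 4.07 and 4.44 RPKM in CCR6+ cells, against 4.02 and 3.97 RPKM in CLP. All 8 libraries lay between 2.89 and 6.69 RPKM. The fold change was -0.33 in ChILP against CLP (SE 0.34, edgeR adjusted p = 1), 0.74 in PD-1+ against CLP (SE 0.34, adjusted p = 0.229), 0.42 in CCR6+ against CLP (SE 0.34, adjusted p = 0.465) and 0.32 in PD-1+ against CCR6+ (SE 0.34, adjusted p = 0.916). None passed. Without PD-1+ replicate 2 the PD-1+ values were 0.94 against CLP (adjusted p = 0.224) and 0.52 against CCR6+ cells (adjusted p = 0.575), and without PD-1+ replicate 1 they were 0.51 (adjusted p = 0.532) and 0.06 (adjusted p = 1). PD-1+ replicate 2 was the lower of its pair and still above the CCR6+ and CLP libraries. Both PD-1+ and both CCR6+ libraries lay above both ChILP libraries, as did 17.7% and 19.2% of all genes. The order of mean levels was PD-1+, CCR6+, CLP and ChILP, and no neighbours in it overlapped. Such gaps were seen for 19.0% (PD-1+ above CCR6+), 19.8% (CCR6+ above CLP) and 18.6% (ChILP below CLP) of all genes. The nearest PD-1+ and CCR6+ libraries stood at 4.49 and 4.44 RPKM. CCR6+ and CLP means differed by 0.258 RPKM, less than the CCR6+ spread of 0.261 RPKM (SD).

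The composition of the family shifted with these changes. Ikzf1 held 74.1% and 67.2% of the summed RPKM of the 5 members in ChILP, 58.1% and 72.1% in PD-1+ cells and 74.7% and 78.6% in CCR6+ cells, against 91.8% and 95.3% in CLP. Ikzf3 held 17.4% and 24.3% in ChILP, 28.2% and 17.9% in PD-1+ cells and 17.0% and 10.2% in CCR6+ cells, against 1.92% and 0.303% in CLP. The level of Ikzf1 was thus 2.06 to 7.71 times that of Ikzf3 in the 6 innate lymphoid libraries and 47.8 and 315 times in CLP. Ikzf2 held 3.65% and 4.83% in ChILP, 6.93% and 3.05% in PD-1+ cells, 0.969% and 2.61% in CCR6+ cells, and 1.18% and 0.163% in CLP. The summed level did not set CLP apart in this way, although it was lowest in both CCR6+ libraries. It was 81.3 and 96.5 RPKM in ChILP, 100.03 and 64.7 RPKM in PD-1+ cells and 55.4 and 54.7 RPKM in CCR6+ cells, against 78.4 and 93.6 RPKM in CLP. Shares are within a library and do not depend on library scaling.

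**Figure D3:**
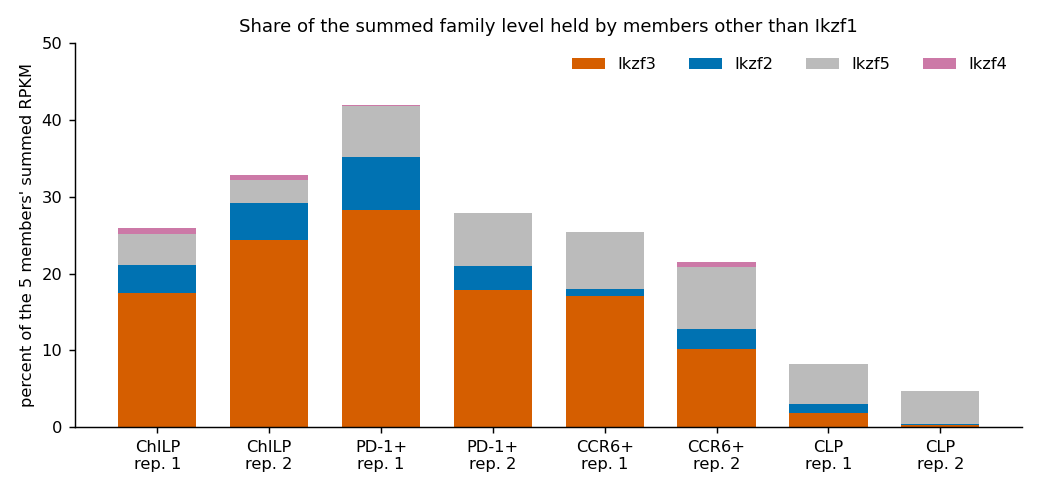
Percent of the summed RPKM of the 5 members (y axis) held by Ikzf3, Ikzf2, Ikzf5 and Ikzf4 in each library (x axis), with Ikzf1 making up the rest. Ikzf3 holds 10.2% to 28.2% in the 6 innate lymphoid libraries, and 1.92% and 0.303% in CLP.

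Markers of other cells were read beside these results because Ikzf1 and Ikzf3 are also expressed in mature lymphocytes. The summed level of 5 T cell markers (Cd3e, Cd3d, Cd3g, Cd4 and Cd8a) was 6.49 and 6.11 RPKM in ChILP, 27.2 and 44.9 RPKM in PD-1+ cells and 51.6 and 53.2 RPKM in CCR6+ cells, against 3.36 and 4.23 RPKM in CLP. That of 4 B cell markers (Cd79a, Ebf1, Pax5 and Ms4a1) was 10.9 and 0.537 RPKM in ChILP, 99.1 and 131 RPKM in PD-1+ cells and 155 and 157 RPKM in CCR6+ cells, against 66.6 and 75.7 RPKM in CLP. In ChILP, Ikzf3 stood above the summed T cell markers in both libraries. Levels of different genes do not show the source of Ikzf3, and the part of T cells was not tested. Both sums were lower in the PD-1+ than in the CCR6+ libraries, although in each list 1 marker had a positive fold change, and their part in the Ikzf3 values was not tested. Against CLP, both marker sums were higher in PD-1+ and CCR6+ cells together with Ikzf3, and their part in that result was not tested. Ebf1 of the B cell list went the other way, at mean levels of 3.83 RPKM in PD-1+ and 2.85 RPKM in CCR6+ cells, against 13.5 RPKM in CLP. The ILC progenitor markers Gata3, Id2, Zbtb16, Tcf7 and Il7r summed to 371 and 613 RPKM in ChILP, 1342 and 360 RPKM in PD-1+ cells and 281 and 202 RPKM in CCR6+ cells, against 58.9 and 66.3 RPKM in CLP, and the CLP markers Flt3, Dntt, Il7r, Rag1 and Kit to 37.1 to 153 RPKM in the other groups and 970 and 1677 RPKM in CLP. Erythroid markers summed to 28128 to 40613 RPKM in PD-1+ and CCR6+ libraries and to 1004 to 6299 RPKM in ChILP and CLP libraries, neutrophil and monocyte markers to 15575 to 33822 and 1111 to 6303 RPKM, early myeloid markers to 729 to 1704 and 6857 to 9705 RPKM, and mast cell and basophil markers to 350 to 833 and 174 to 352 RPKM. Single markers went against these sums by mean RPKM. Il7r was lower in ChILP (27.3), PD-1+ (29.3) and CCR6+ cells (19.8) than in CLP (30.3). Zbtb16 was lower in CCR6+ cells (0.983) than in CLP (1.57), and Kit was higher in ChILP (37.6) than in CLP (30.0). The erythroid marker Klf1 stood at 263 in PD-1+ cells and 273 in CLP, and the mast cell marker Cpa3 at 47.4 in CCR6+ cells and 67.9 in ChILP. The part of all these cells in the differences from CLP was not tested. No marker of these lists other than Ccr6, in CLP, lacked reads in a whole group.

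**Figure D4:**
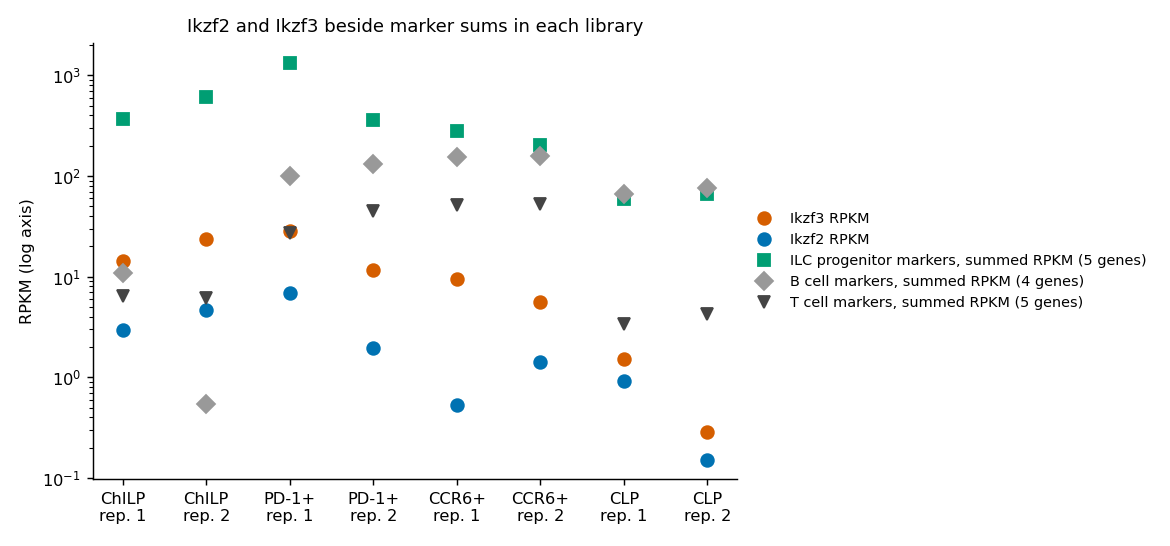
RPKM on a log axis (y axis) of Ikzf3 and Ikzf2 and summed RPKM of 5 ILC progenitor, 4 B cell and 5 T cell markers in each library (x axis). Ikzf3 is at 14.2 and 23.5 RPKM in ChILP, beside T cell marker sums of 6.49 and 6.11 RPKM. It is at 9.43 and 5.58 RPKM in CCR6+ cells, beside 51.6 and 53.2 RPKM. In PD-1+ cells it is at 28.2 and 11.6 RPKM, beside 27.2 and 44.9 RPKM. In CLP it is at 1.51 and 0.283 RPKM, beside 3.36 and 4.23 RPKM. The part of T cells was not tested.

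The genes most like each member were found by Pearson's r of log2(RPKM + 1) over the 8 libraries among 8950 genes whose mean reached 5 RPKM in some group. The points are the same 8 libraries and share their totals and group differences, so r is a description only. For Ikzf2 these included Tmsb15a, a thymosin that binds actin (r = 0.96), and Zbtb16, which encodes PLZF, a factor of ILC precursors (r = 0.95). Zbtb16 stood at 14.0 and 31.3 RPKM in ChILP, 46.1 and 11.8 RPKM in PD-1+ cells and 0.732 and 1.23 RPKM in CCR6+ cells, against 2.28 and 0.855 RPKM in CLP. Like Ikzf2, it was highest in PD-1+ replicate 1 and low in CCR6+ cells and CLP. For Ikzf3 they were Rab19, a small GTPase (r = 0.98), Xlr4a (r = 0.98) and Fah, an enzyme of tyrosine breakdown (r = 0.97). Rab19 stood at 18.3 and 35.4 RPKM in ChILP, 51.5 and 17.6 RPKM in PD-1+ cells and 13.2 and 9.14 RPKM in CCR6+ cells, against 5.16 and 1.86 RPKM in CLP. For Ikzf1 they were Tspan32, a tetraspanin of blood cells, Gm16897 and Zfp422 (r = 0.99 each). Tspan32 stood at 98.1 and 98.2 RPKM in ChILP, 92.6 and 72.9 RPKM in PD-1+ cells and 63.4 and 62.6 RPKM in CCR6+ cells, against 117 and 143 RPKM in CLP. For Ikzf4, with its few reads, they were Ghdc (r = 0.98), Trmt12 (r = 0.93) and Nqo2 (r = 0.91), and for Ikzf5 Lmbr1l (r = 0.97), Bloc1s1 (r = 0.96) and D330023K18Rik (r = 0.95).

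The partners through which Ikaros proteins act were present in all groups. Of 17 NuRD and other corepressor genes, edgeR called 0 in ChILP against CLP, 1 lower in PD-1+ against CLP, 4 lower in CCR6+ against CLP and 0 in PD-1+ against CCR6+. Of all genes 0.022%, 7.31%, 11.4% and 0.0% were called in these comparisons, so 1 of 17 is near the background. Their median fold changes were -0.02, -0.24, -0.37 and 0.17, beside 0.05, -0.02, -0.09 and 0.01 over all genes tested. The 4 that fell in CCR6+ cells were Rbbp7, a histone-binding subunit (50.2 ± 8.89 RPKM in CCR6+ and 126 ± 18.9 RPKM in CLP; adjusted p = 0.0232), the deacetylase Hdac2 (24.2 ± 2.17 and 67.0 ± 2.02 RPKM; adjusted p = 0.0246), Mbd3 (18.1 ± 4.24 and 71.2 ± 33.3 RPKM; adjusted p = 0.0274) and Mta3 (23.4 ± 2.62 and 74.8 ± 25.4 RPKM; adjusted p = 0.0284). Hdac2 also fell in PD-1+ cells, at 26.4 ± 8.41 RPKM (adjusted p = 0.0358). In ChILP, Hdac2 stood at 66.5 ± 10.5 RPKM and Rbbp7 at 116 ± 4.56 RPKM. PD-1+ and CCR6+ cells share the magnetic route of enrichment, and this and the cell type cannot be told apart in these calls. These calls rest on single libraries: the CCR6+ count was 0 without CCR6+ replicate 1, CCR6+ replicate 2 or CLP replicate 2 and 2 without CLP replicate 1, and the PD-1+ count was 0 without PD-1+ replicate 2, CLP replicate 1, CLP replicate 2, CCR6+ replicate 1 or CCR6+ replicate 2. Chd4, the remodelling ATPase of NuRD that binds Ikaros, stood at 18.4 ± 0.931 RPKM in ChILP, 17.1 ± 1.49 RPKM in PD-1+ and 10.9 ± 0.0547 RPKM in CCR6+ cells, against 17.8 ± 2.76 RPKM in CLP, with the smallest p of the list in PD-1+ against CCR6+ (fold change 0.58, SE 0.17, adjusted p = 0.729). In ChILP against CLP the smallest p values were those of Mta3 (fold change -1.31, adjusted p = 0.248) and Gatad2a (0.46, adjusted p = 0.838).

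Cereblon, the substrate receptor of the ubiquitin ligase through which thalidomide analogues lead to the degradation of Ikaros and Aiolos in human cells, was tested with its 4 ligase partners, and edgeR called 0 of 5 in all comparisons. Crbn stood at 13.3 ± 1.77 RPKM in ChILP, 11.1 ± 4.87 RPKM in PD-1+ and 9.10 ± 0.780 RPKM in CCR6+ cells, against 10.2 ± 1.23 RPKM in CLP. The smallest p of the list was that of Ddb1, the adaptor of the ligase, in CCR6+ cells against CLP (fold change -0.56, SE 0.17, adjusted p = 0.0762).

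The last list holds lymphoid genes known as Ikaros targets. Of 20, 19 were tested, and edgeR called 1 lower in ChILP, 1 higher and 6 lower in PD-1+ and 2 higher and 6 lower in CCR6+ cells, each against CLP, and 0 in PD-1+ against CCR6+. Over all genes, the calls were 1 higher and 2 lower in ChILP (0.022%), 609 higher and 386 lower in PD-1+ (7.31%), and 897 higher and 652 lower in CCR6+ cells (11.4%). The medians were -1.94, -1.69, -1.54 and -0.08, beside 0.05, -0.02, -0.09 and 0.01 over all genes tested. Flt3, a gate gene and so no finding, is among the calls lower in all 3 groups, which leaves 0, 5 and 5 other genes lower. Flt3, Dntt, Il7r and Rag1 also serve above as CLP markers, so a lower level of these outside CLP is in part built into the list. Myc, a growth regulator, stood at 58.3 ± 15.3 RPKM in PD-1+ and 40.4 ± 6.56 RPKM in CCR6+ cells, against 272 ± 52.5 RPKM in CLP. It fell in both (edgeR adjusted p = 0.00992 and 0.00471), and stood at 182 ± 7.78 RPKM in ChILP. PD-1+ and CCR6+ cells share the magnetic route, and this and the cell type cannot be told apart in the calls of this list. Dntt, the polymerase that adds bases at antigen receptor joints and a classic Ikaros target, stood at 30.4 ± 22.1 RPKM in PD-1+ and 7.75 ± 4.99 RPKM in CCR6+ cells, against 1133 ± 447 RPKM in CLP, and fell in both (adjusted p = 0.0106 and 0.00578). Rag2, a recombinase subunit, stood at 0.338 ± 0.0672 RPKM in PD-1+ and 0.0708 ± 0.1001 RPKM in CCR6+ cells, against 24.1 ± 7.96 RPKM in CLP. It fell in both (edgeR adjusted p = 0.0142 and 0.00734). In ChILP, Dntt stood at 63.7 ± 9.61 RPKM and Rag2 at 1.67 ± 1.26 RPKM. Named after their values were seen, the calls that rose were Dtx1, a regulator of Notch signalling, in both (adjusted p = 0.0177 in PD-1+ and 0.0122 in CCR6+), and Cd79b, a chain of the B cell receptor, in CCR6+ cells (adjusted p = 0.0198). Dtx1 had 0 reads in ChILP and in CLP, and 328 in PD-1+ and 301 in CCR6+ cells. It passed the filter on low counts only through PD-1+ and CCR6+ libraries, so its tests against CLP are not independent of that difference. Its calls, the 1 higher in PD-1+ and 1 of the 2 higher in CCR6+ cells, are therefore no finding. Both groups took the magnetic route, and their T and B cell marker sums were also higher. The part of these was not tested. In PD-1+ against CCR6+ the smallest p values were those of Hes1, a Notch target (46.7 ± 39.6 and 3.24 ± 3.04 RPKM, adjusted p = 0.636), and Dntt (adjusted p = 0.744). Without PD-1+ replicate 2 the PD-1+ count was 8. Without CLP replicate 2 the counts against CLP were 1 in PD-1+ and 3 in CCR6+ cells, and without CCR6+ replicate 2 the CCR6+ count was 5. In ChILP the count was 0 without CLP replicate 1, CLP replicate 2, ChILP replicate 2 or either CCR6+ library, 5 without PD-1+ replicate 1 and 4 without PD-1+ replicate 2.

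**Figure D5:**
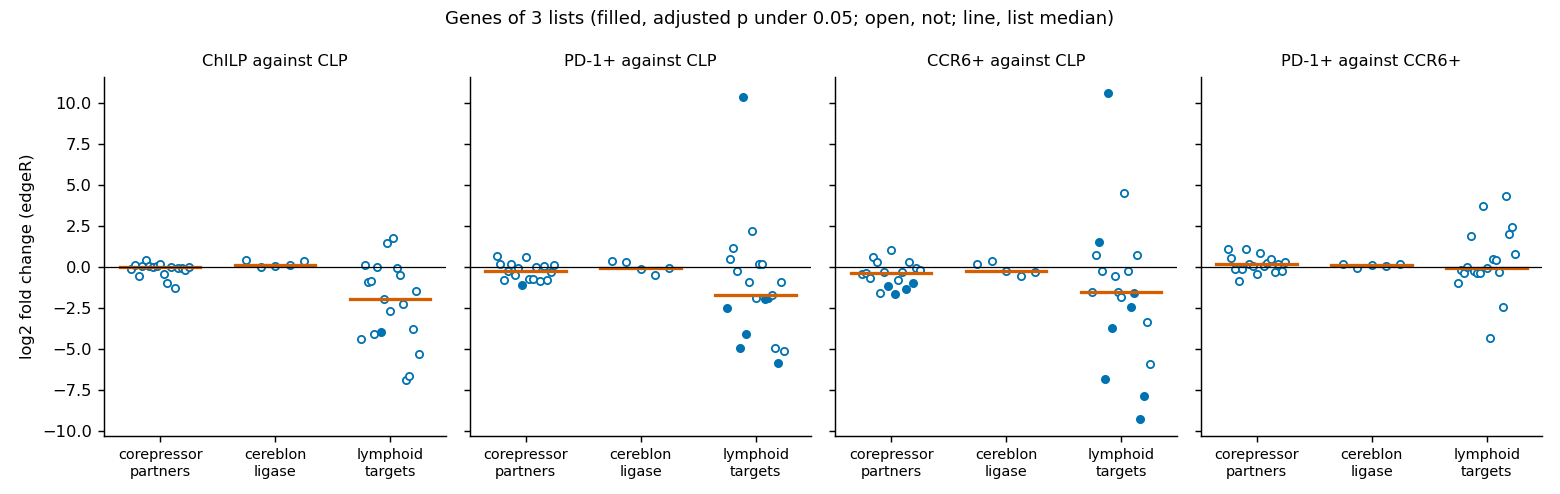
Log2 fold change (y axis, edgeR) of each tested gene of 3 lists (x axis) in 4 comparisons (panels); filled points had an adjusted p under 0.05 and lines are list medians. The medians of the corepressor and ligase lists lie between -0.37 and 0.17, with 4 corepressor genes filled below 0 in CCR6+ against CLP, and those of the lymphoid targets between -1.94 and -1.54 against CLP.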

How the data were processed

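Sorted cells were made into Smart-seq2 libraries and read at 50 bp, per the labels' protocols. CASAVA 1.8.4, Bowtie2 2.2.2 and the build mm9 are named, without their order, in the submitters' processing notes. For the read counter, strand setting and annotation the entry is: not given in the sources used here. For each library the authors deposited counts, RPKM and lengths of 29257 RefSeq transcripts. The deposited RPKM equal counts over length and a library total, tested on the values. The transcript with most reads on average stood for its gene.

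Counts were tested with edgeR 4.0.16 (R 4.3.3) after TMM scaling and filtering with filterByExpr (minimum count 10). A robust two-sided quasi-likelihood test was fitted to 8 libraries, with 4 residual degrees of freedom. Alternatives used DESeq2 1.42.0, limma 3.58.1, other filters and scalings, and each library left out. Library totals without TMM and the list counts under each alternative were added after seeing the data. Named genes were the 5 members, up to 4 called genes per list and comparison by smallest p (otherwise the 2 smallest), the 3 genes most like each member, and markers beside a result. A marker and a gene that this rule names are not reported here, and the marker is left out of its sum. Members and lists were chosen with earlier results of these data known. Depth ran from 7685188 to 13997897 reads per library.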

Additional observations from a re-analysis of the deposited data

How the results depend on the processing

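Of 336 values of single members under the alternatives, 335 kept the sign reported. The exception was Ikzf4 in PD-1+ against CCR6+, which was -1.02 and ran from -2.95 to 5.09 leaving out 1 library, the 5.09 without CCR6+ replicate 2, which held all 15 CCR6+ reads. Ikaros members called, reported as 0, 1, 1 and 1 for ChILP, PD-1+ and CCR6+ against CLP and for any difference among the 4 groups, numbered 1, 2, 2 and 2 with DESeq2 and 1, 1, 2 and 2 with limma on log2(RPKM + 1); with log2(RPKM + 0.1) they were 1 in ChILP and 2 in CCR6+. With no filter they were 0 in CCR6+ and 0 among the groups, where Ikzf3 had an adjusted p of 0.0609 and 0.0729. With a filter of 5 RPKM, which left 2 members, they were 2 in CCR6+. With only the 4 libraries compared, they were 0 in PD-1+ (Ikzf3 adjusted p = 0.0589). With library totals they were 2 in CCR6+ and 2 among the groups. Leaving out 1 library gave 0 to 0 in ChILP, 0 to 2 in PD-1+, 0 to 1 in CCR6+, 0 to 1 among the groups and 0 to 0 in PD-1+ against CCR6+; without CCR6+ replicate 1, CCR6+ replicate 2, ChILP replicate 2 or CLP replicate 2 the test among the groups lost Ikzf3 (adjusted p = 0.0604, 0.0634, 0.0511 and 0.0641). The lone library left in a group is assumed to vary like the others. Against CLP and among the groups, the DESeq2 test and limma also called more of all genes, as given below. Their member counts thus stand beside larger shares of all genes. The cause of these changes was not tested.

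Counts over all genes moved more. ChILP against CLP, with 3, gave 0 with DESeq2 size factors, 63 with no filter, 15 with the filter of 5 RPKM, 263 with DESeq2, 55 and 46 with limma (pseudocounts 1 and 0.1), 59 with the 4 libraries and 0 to 51 leaving out 1. PD-1+ against CCR6+, with 0, gave 128 with DESeq2, 2 with limma (pseudocount 1) and 0 to 36 leaving out 1. PD-1+ against CLP, with 995, gave 2301 with DESeq2, 2147 and 1870 with limma, 208 with the 4 libraries and 8 to 995 leaving out 1. CCR6+ against CLP, with 1549, gave 2750 with DESeq2, 3114 and 2797 with limma and 83 to 1930 leaving out 1. The test among the groups, with 1322, gave 3076 with DESeq2, 2796 and 2462 with limma and 428 to 1577 leaving out 1. Replicate numbers are shared by the groups, and same-numbered libraries deviated together only weakly over all genes (r of -0.11 to 0.09). Neutrophil and monocyte marker sums did move alike within a route. In replicates 1 and 2 they were 6303 and 1371 RPKM in ChILP and 4862 and 1111 RPKM in CLP. They were 15575 and 31453 RPKM in PD-1+ and 20995 and 33822 RPKM in CCR6+ cells. Erythroid sums fell from replicate 1 to 2 in ChILP, CLP and CCR6+ but rose in PD-1+ cells. Whether same-numbered libraries share a preparation was not tested. With the replicate block the counts were 0 in ChILP against CLP, 0 in PD-1+ against CCR6+, 632 in PD-1+ against CLP, 1153 in CCR6+ against CLP and 828 among the groups, and Ikzf3 had an adjusted p of 0.0256 in PD-1+ and 0.0319 in CCR6+ cells against CLP. With 0 to 45 reads per library, depth limits the test of Ikzf4, which was not called in any comparison.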
